A study of Rattus norvegicus with 12 samples.

Results

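The mature microRNAs miR-191a-5p and miR-425-5p (rno-miR-191a-5p and rno-miR-425-5p in the table) come from neighbouring hairpins of the rat genome and were followed in serum after caffeine, dextromethorphan or both drugs. They are 2 of the 752 mature microRNA names in the deposited table, taken by name. They were chosen by the shared locus and by the measured abundance of miR-191a-5p, the microRNA with the highest FPKM in this table, so its rank and level are descriptions and were not tested. Both passed the filter on low values, which left 366 names for testing.

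Serum small RNA was sequenced from male Jcl:SD Sprague-Dawley rats, an outbred stock, aged 7 weeks, in 12 libraries, 3 in each of 4 groups. CAF rats received 180 mg/kg caffeine by mouth, a stimulant that blocks adenosine receptors, and DEX rats received 200 mg/kg dextromethorphan hydrobromide monohydrate, a cough suppressant that blocks NMDA receptors. CAF+DEX rats received both, with dextromethorphan 1 h after caffeine, and control rats received sterile distilled water as vehicle. Blood was drawn 1 h after dextromethorphan. The design text gives 5 rats per group, but the labels do not tie each library to an animal of its own, and the p-values then cover only how far these libraries differ, which may be technical. Libraries are called by the names of their columns.

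MicroRNAs are short RNAs cut from a hairpin whose arms are named 5p and 3p. One arm is usually kept in an Argonaute protein, where bases 2 to 8, the seed, pair with target messenger RNAs, and the other arm is mostly degraded. In humans the hairpins of miR-191 and miR-425 lie together in an intron of DALRD3 and are made from one primary transcript. Both microRNAs are abundant in blood cells and are in common use as reference microRNAs for serum and plasma PCR, which makes their stability under a treatment a practical question.

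The sequences of the locus are shown because the seeds tell the arms apart and the spacing defines the cluster. Per the deposited table, in build rn6, miR-191a-5p lies on the plus strand at chr8:117354378-117354400 and miR-425-5p on the same strand at chr8:117354831-117354853, so that their starts are 453 bases apart. The mature sequences, from RefSeq (GRCr8), are given with the seed in capitals.
miR-191a-5p: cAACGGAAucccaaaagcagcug
miR-191a-3p: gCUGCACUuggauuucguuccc
miR-425-5p: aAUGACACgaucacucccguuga
miR-425-3p: aUCGGGAAuaucguguccgcc
Among 693 mature rat sequences from RefSeq, 0 others carried the seed of miR-191a-5p, miR-425-5p or miR-425-3p, and 1 other, miR-17-2-3p, carried that of miR-191a-3p. Each of the 4 arms had a single row in the table. The hairpins, from the same source, show the arms in capitals and place 19 bases between the arms of Mir191 and 18 between those of Mir425.
Mir191: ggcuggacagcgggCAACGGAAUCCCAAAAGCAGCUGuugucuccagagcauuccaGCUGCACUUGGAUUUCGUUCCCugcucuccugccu
Mir425: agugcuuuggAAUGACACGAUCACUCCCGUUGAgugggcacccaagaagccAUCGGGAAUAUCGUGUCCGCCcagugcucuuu
In the RefSeq annotation of GRCr8 both hairpins lie inside the extent of the Dalrd3 gene. The table also lists miR-191b, at chr8:117354419-117354439 on the minus strand, whose sequence is the reverse complement of a stretch of the Mir191 hairpin that overlaps miR-191a-3p by 20 bases.
miR-191b: gAACGAAAuccaagugcagcu
Its values came to 3, 1 and 3 reads in the CAF libraries, 0 in each of the 3 DEX libraries, 0, 0 and 3 in the CAF+DEX libraries and 1, 2 and 2 in the control libraries. The opposite strand of the hairpin was thus close to or at 0 throughout, and no difference between groups can be read at this depth.

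Values are FPKM, reads per kilobase of mature sequence scaled to the assigned reads, so that a level is a share of the listed microRNAs and not an amount per volume of serum. Assigned reads, recovered from the steps of the values, numbered 1504963 to 1842795 in CAF libraries, 403913 to 895792 in DEX libraries, 758290 to 1160717 in CAF+DEX libraries and 1304868 to 2625593 in control libraries. Fewer copies of a microRNA and more of the others cannot be told apart in such values. DEX2 and DEX3 had the fewest reads and the highest haemolysis index (log2 of red-cell miR-451-5p over miR-23a-3p) of all libraries. The index ran from -7.83 in ctrl5 to -5.13 in DEX2, so miR-451-5p stood far below miR-23a-3p in all 12 libraries. The limma differences of both members in DEX against control are given with and without DEX2 and DEX3. Other DEX values include both libraries unless stated.

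miR-191a-5p stood first in all 12 libraries. Its level was 13225054, 15584081 and 11710787 FPKM in the CAF libraries CAF3, CAF4 and CAF5, and 8918952, 11923516 and 9124660 FPKM in the DEX libraries DEX1, DEX2 and DEX3. It was 11438707, 8326345 and 13576068 FPKM in the CAF+DEX libraries CAFDEX2, CAFDEX3 and CAFDEX6, against 14718996, 17104049 and 15519414 FPKM in the control libraries ctrl1, ctrl3 and ctrl5. Every DEX and every CAF+DEX library lay below the lowest control library, while CAF4 lay among the controls. Groups did not overlap, with the treated libraries lower, for 7.1% of all tested names in DEX, 15.8% in CAF+DEX and 6.56% in CAF against control. Group means were 13506641 ± 1951940 FPKM in CAF, 9989043 ± 1678458 in DEX, 11113707 ± 2639908 in CAF+DEX and 15780819 ± 1213824 in control (SD, n = 3 each). In the order control, CAF, CAF+DEX, DEX, each neighbouring pair of groups overlapped. Counting error was small beside these differences, since the value rested on 84768 reads in DEX3 and on 1032890 reads in ctrl3.

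The lead over the next microRNA varied. It was smallest in DEX1, where miR-191a-5p stood 1.30 times as high as miR-122-5p, the hepatocyte microRNA, and largest in ctrl3, where it stood 3.94 times as high as miR-16-5p, a microRNA abundant in red cells. Second place went to miR-16-5p in all 3 control libraries and to either miR-16-5p or miR-122-5p in each treated group. The ratio of miR-191a-5p to miR-16-5p, chosen after the values were seen, was 3.20, 3.82 and 2.69 in CAF, 1.97, 2.14 and 1.68 in DEX, 2.01, 1.41 and 3.08 in CAF+DEX and 3.27, 3.94 and 3.59 in control. All DEX and CAF+DEX ratios were below all control ratios, and CAF4 again lay within the control range. miR-16-5p itself had a log2 fold change of 0.23 in DEX and 0.27 in CAF+DEX against control, which lowers any ratio to it there. How many other names separate on such a ratio was not tested.

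miR-425-5p was far lower, at ranks between 41 in ctrl1 and 74 in CAFDEX3. Its level was 39127, 32772 and 30537 FPKM in the CAF libraries, 48293, 35777 and 48439 FPKM in the DEX libraries and 32538, 26375 and 34836 FPKM in the CAF+DEX libraries, against 92864, 58554 and 31887 FPKM in the control libraries. The control libraries spread most: ctrl1 stood 2.91 times as high as ctrl5, and ctrl5 lay within the CAF and CAF+DEX ranges and below the DEX libraries, which ctrl3 and ctrl1 exceeded. All 3 treated groups therefore overlapped control. The same 3 control libraries differed by no more than 1.16 times in miR-191a-5p. Group means were 34145 ± 4457 FPKM in CAF, 44170 ± 7269 in DEX, 31250 ± 4375 in CAF+DEX and 61102 ± 30568 in control (SD, n = 3 each). In the order control, DEX, CAF, CAF+DEX, each neighbouring pair overlapped. The counting error of this microRNA was between 1.49% in ctrl1 and 5.23% in DEX2, where 365 reads were assigned to it, so the gap between ctrl1 and ctrl5 exceeded counting error.

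**Figure D1:**
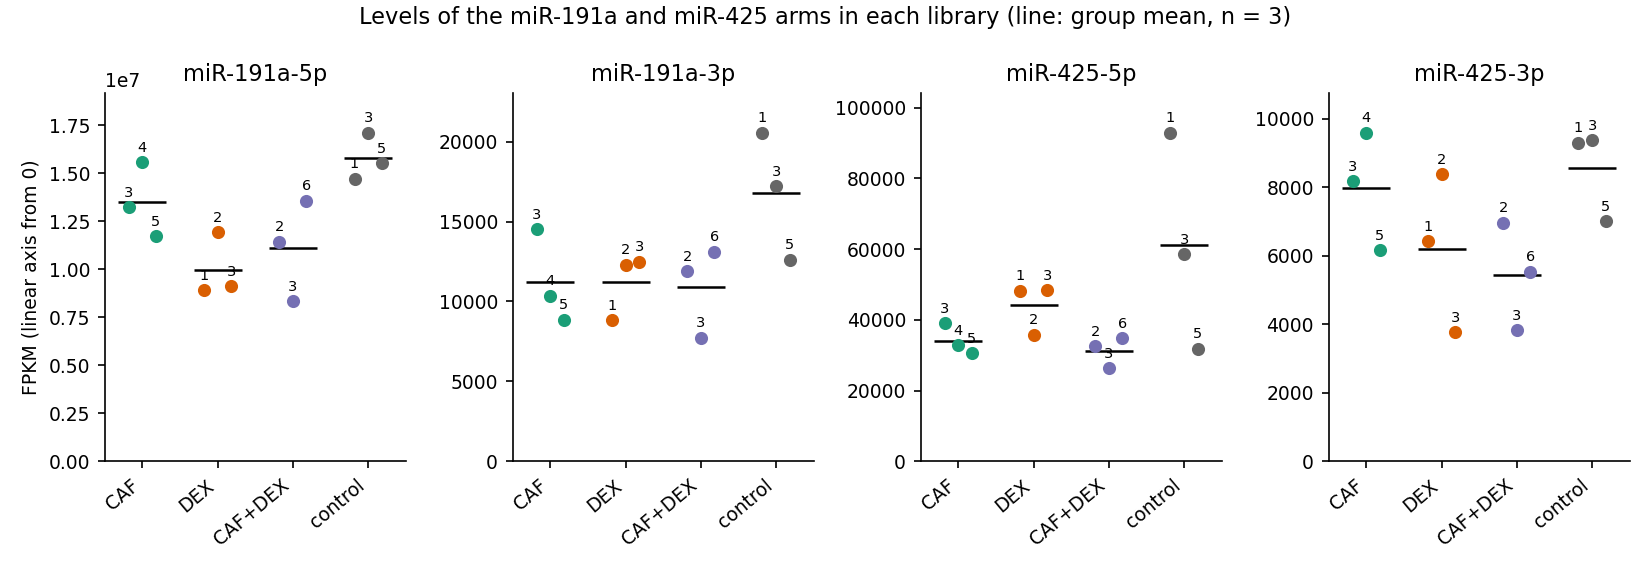
Level in FPKM (linear axes from 0) of the 4 arms of the locus in each of the 12 libraries, by group; points are libraries, the digits beside them are the numbers in the library names, and lines are group means (n = 3). All DEX and CAF+DEX libraries lie below all control libraries for miR-191a-5p, whereas ctrl1 at 92864 FPKM and ctrl5 at 31887 FPKM span the values of the treated libraries for miR-425-5p except CAF5 and CAFDEX3.

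The partner arms were minor products of their hairpins. miR-191a-3p was at 14531, 10347 and 8850 FPKM in CAF, 8829, 12297 and 12491 in DEX, 11893, 7733 and 13119 in CAF+DEX and 20542, 17208 and 12610 in control. Its DEX libraries were all below control, the highest of them by a small margin, and the other groups overlapped control. That margin, DEX3 against ctrl5, was smaller than the counting error of DEX3, 9.49% at 111 reads. miR-425-3p was at 8168, 9587 and 6170 FPKM in CAF, 6432, 8374 and 3773 in DEX, 6963, 3831 and 5538 in CAF+DEX and 9301, 9377 and 7007 in control. Its CAF+DEX libraries were all below control, with CAFDEX2 just under ctrl5. That gap was smaller than the counting error of CAFDEX2, 8.11% at 152 reads. Among all tested names, 7.1% lay wholly below control in DEX and 15.8% in CAF+DEX.

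The ratio of the arms in FPKM differed between the hairpins. The 5p arm exceeded the 3p arm 717 to 1506 times at Mir191 and 3.42 to 12.8 times at Mir425, and within each hairpin it was the 5p arm that was higher in all 12 libraries. The ratio of miR-425-5p to miR-425-3p was 4.79, 3.42 and 4.95 in CAF, 7.51, 4.27 and 12.8 in DEX, 4.67, 6.89 and 6.29 in CAF+DEX and 9.98, 6.24 and 4.55 in control. The 12.8 of DEX3 rested on 32 reads of miR-425-3p, with a counting error of 17.7%. The groups overlapped, and an exact permutation of the 12 libraries over the 4 groups gave p = 0.381 for Mir425 and p = 0.363 for Mir191 (both adjusted to 0.381 over 5 within-library quantities).

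Within a library, miR-191a-5p stood 338, 476 and 383 times as high as miR-425-5p in CAF, 185, 333 and 188 times in DEX, 352, 316 and 390 times in CAF+DEX and 159, 292 and 487 times in control. The control libraries ctrl1 and ctrl5 set both ends of the range over all 12 libraries, and the ratio did not differ between groups beyond that spread (exact permutation p = 0.297, adjusted 0.381). Such ratios are the same under any scaling between libraries. The share of miR-425-5p in the summed FPKM ran from 0.0584% in CAFDEX3 to 0.206% in ctrl1 (exact permutation p = 0.101, adjusted 0.253).

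**Figure D2:**
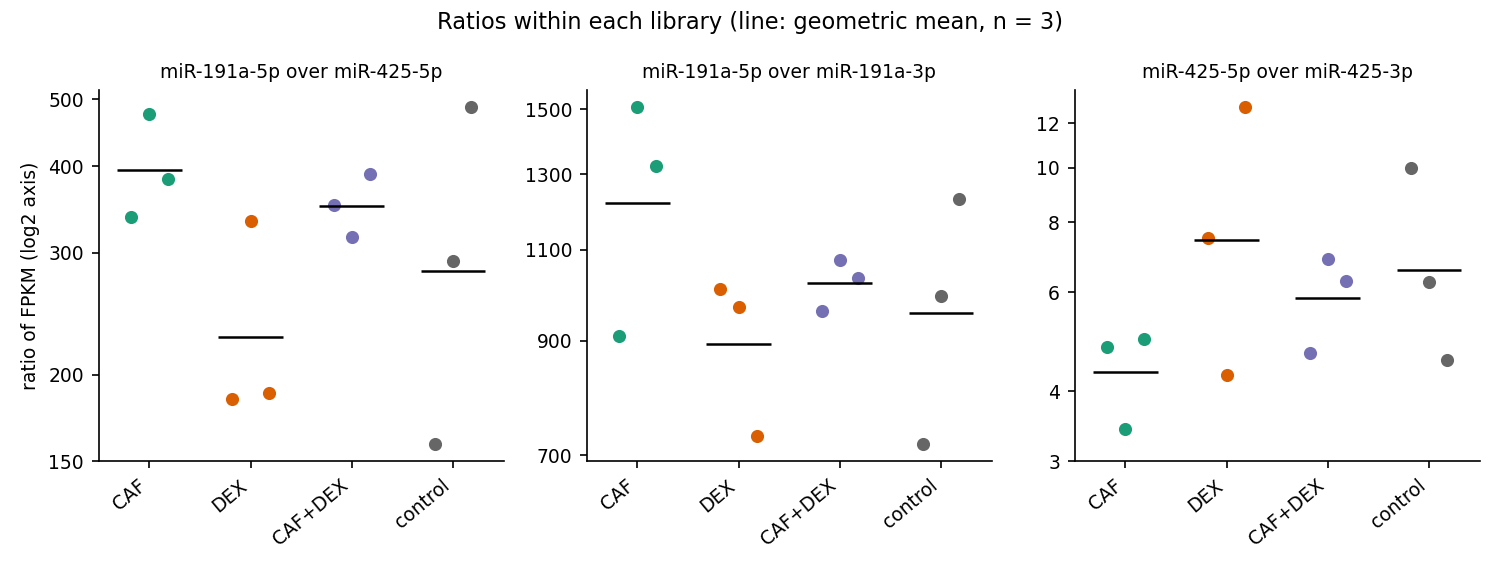
Ratio of FPKM within each of the 12 libraries (log2 axes) for miR-191a-5p over miR-425-5p, miR-191a-5p over miR-191a-3p and miR-425-5p over miR-425-3p, by group; points are libraries and lines are geometric means (n = 3). Control libraries run from 159 to 487 in the plot of the clustered pair, and all 4 groups overlap there.

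Levels of the pair were compared over the 12 libraries. On log2(FPKM + 40) miR-191a-5p and miR-425-5p had Pearson r = 0.26 (permutation p = 0.424, adjusted 0.636 over 3 relations) and Spearman rho = 0.27 (permutation p = 0.393). Without CAFDEX3 and DEX1, farthest from the median of miR-191a-5p, r was 0.20. After the group means were subtracted, rho was 0.07 (permutation p = 0.835) and r without CAFDEX3 and CAFDEX6 was -0.26. With median-of-ratios scaling, added after the data were seen, the levels had r = 0.53 (permutation p = 0.071, adjusted 0.213), rho = 0.42 (permutation p = 0.178) and r = 0.47 without DEX3 and ctrl3. The correlation of the pair thus varied with the scaling, and it passed in none of these 3 relations.

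Differences between groups were tested with limma on log2(FPKM + 40), with adjustment over all 366 names and a threshold of 0.05. Neither microRNA passed in any of the 7 comparisons as deposited. For miR-191a-5p in DEX against control the log2 fold change was -0.67 ± 0.23 (SE), a level 0.629 times that of control with a 95% interval of 0.450 to 0.878, lower in 3 of 3 libraries, with limma adjusted p = 0.0597. In CAF+DEX against control it was -0.53 ± 0.23 (limma adjusted p = 0.137). Without DEX2 and DEX3 the DEX arm is the single library DEX1, whose difference from control was -0.82 ± 0.33; here the SE and the limma adjusted p = 0.147 assume that this library varies like those of the other groups. In CAF against control it was -0.23 ± 0.23 with a 95% interval of -0.71 to 0.25 (limma adjusted p = 0.572). Of all tested names, 12% passed in DEX against control, with 0.546% lower and 11.5% higher. In CAF+DEX against control 10.9% passed, with 4.37% lower, and in CAF against control 7.92% passed, with 1.09% lower.

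miR-425-5p was also below control in every group mean. Its log2 fold change was -0.84 ± 0.32 in CAF+DEX against control (limma adjusted p = 0.103), -0.72 ± 0.32 in CAF against control (limma adjusted p = 0.182) and -0.35 ± 0.32 in DEX against control (limma adjusted p = 0.453). These values rest on which control libraries are counted. Without ctrl5 both CAF (log2 fold change -1.12, limma adjusted p = 0.0224) and CAF+DEX (-1.25, limma adjusted p = 0.0156) passed as lower than control. In the fit without ctrl1 they shrank to -0.35 in CAF and -0.48 in CAF+DEX. Over all fits with 1 library left out, limma adjusted p reached 0.645 in CAF and 0.433 in CAF+DEX. Without ctrl1 the DEX difference was 0.018 (limma adjusted p = 0.981). For DEX1 alone, without DEX2 and DEX3, it was -0.21 ± 0.46 (limma adjusted p = 0.839), with the spread again taken from the other groups. The 3 contrasts share the control libraries, so ctrl1 and ctrl5 enter each of them.

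The treated groups were set against each other to see whether the pair of drugs acted unlike either drug alone. In CAF+DEX against DEX, where 3.55% of names passed, miR-191a-5p had a log2 fold change of 0.14 with a 95% interval of -0.34 to 0.62 and miR-425-5p one of -0.49 with an interval of -1.18 to 0.19. In CAF+DEX against CAF, where 0% of names passed in limma and in voom on recovered reads and 22 names had an unadjusted p under 0.05, the values were -0.30 (-0.78 to 0.18) and -0.13 (-0.82 to 0.56). In DEX against CAF, where 2.46% passed, they were -0.44 (-0.92 to 0.04) and 0.36 (-0.32 to 1.05). The interaction, the departure of CAF+DEX from the sum of the single drugs, was 0.37 ± 0.32 for miR-191a-5p (limma adjusted p = 0.589) and 0.22 ± 0.46 for miR-425-5p (limma adjusted p = 0.846), and 4.64% of names passed there. The intervals include changes of either sign.

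The scale of the values bears on both microRNAs. Over all tested names the median log2 fold change was 0.19 in CAF, 0.47 in DEX and 0.24 in CAF+DEX against control, so the members lay further below the median name than below 0. When FPKM were rescaled to the sum of all names but miR-191a-5p, the medians were 0.09, 0.25 and 0.04, miR-191a-5p in DEX against control was -0.93 ± 0.27 (limma adjusted p = 0.0461) and miR-425-5p in CAF+DEX against control was -1.06 ± 0.32 (limma adjusted p = 0.0469). With median-of-ratios scaling miR-191a-5p in DEX against control was -1.08 ± 0.29 (limma adjusted p = 0.0266). The direction of both microRNAs in all 3 contrasts with control was the same under these scalings. For miR-191a-5p, rescaling without itself gives its level over all other names, which rises and falls with its own share. Its direction there is in effect fixed by the deposited values, and its larger difference is built in. That rescaled value is thus no separate check on miR-191a-5p. Passing names in DEX against control were split into 42 higher and 2 lower as deposited, 15 higher and 19 lower with median-of-ratios scaling, and 16 higher and 13 lower when rescaled without miR-191a-5p. In CAF+DEX against control the split was 24 higher and 16 lower as deposited, 19 and 25 with median-of-ratios scaling, and 12 and 27 when rescaled. In CAF against control it was 25 and 4 as deposited, 12 and 7 with median-of-ratios scaling, and 16 and 4 when rescaled.

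The weight of miR-191a-5p is large enough to move every other value. It took 29.3, 34.7 and 26.0% of the summed FPKM in CAF, 19.8, 26.4 and 20.2% in DEX, 25.3, 18.4 and 30.2% in CAF+DEX and 32.6, 38.0 and 34.5% in control. Removing it from the sum multiplied the other names by 1.35 to 1.53 in CAF, 1.25 to 1.36 in DEX, 1.23 to 1.43 in CAF+DEX and 1.48 to 1.61 in control. On the log2 scale this lowered the others, relative to control, by a mean of 0.11 in CAF, 0.26 in DEX and 0.21 in CAF+DEX. As log2 odds, its level over that of all other names averaged -1.23 ± 0.30 in CAF, -1.83 ± 0.30 in DEX, -1.64 ± 0.47 in CAF+DEX and -0.89 ± 0.17 in control (SD, n = 3 each; exact permutation p = 0.0396, adjusted 0.198). Set 3 against 3, DEX and CAF+DEX each differed from control with exact p = 0.1, the smallest p the design allows (adjusted 0.75 over 15 comparisons).

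**Figure D3:**
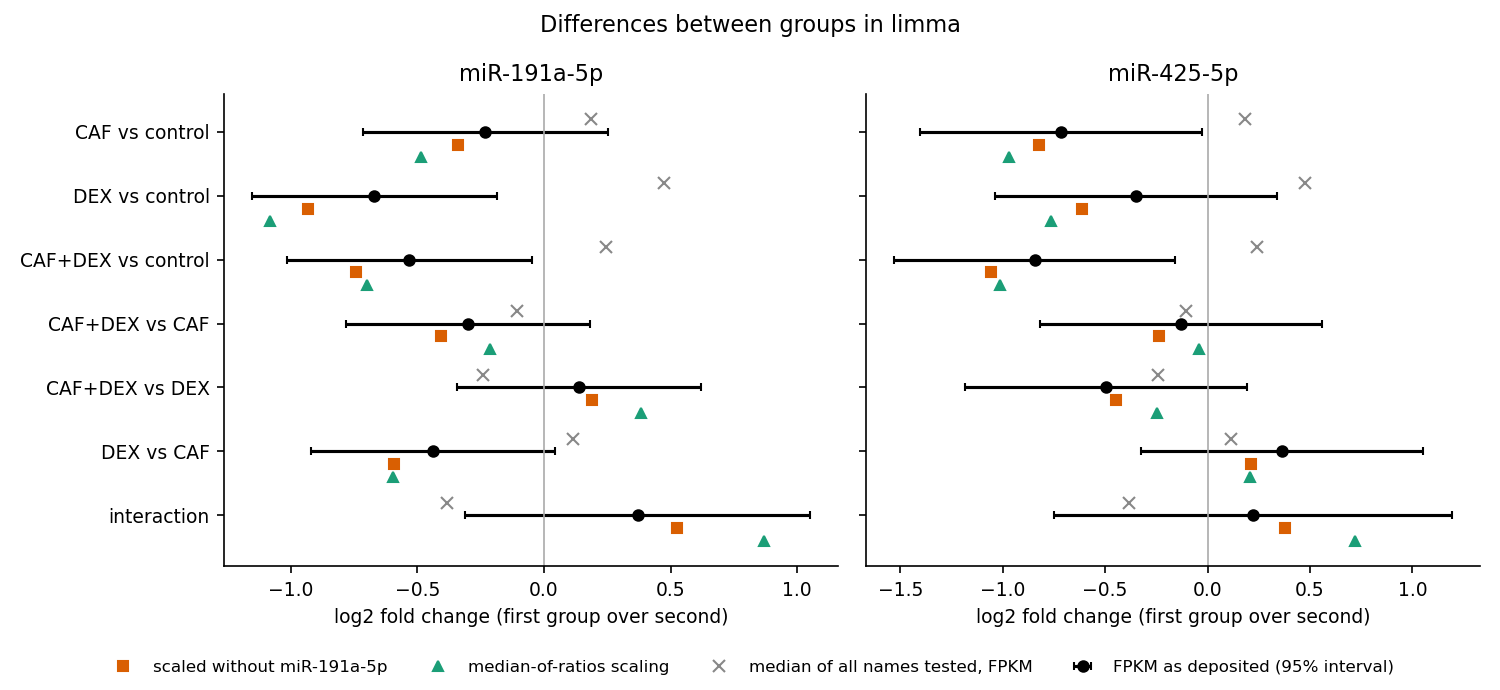
Log2 fold change on log2(FPKM + 40) of miR-191a-5p and miR-425-5p in the 7 limma comparisons (first group over second; interaction as CAF+DEX minus CAF minus DEX plus control). Black points with bars are deposited FPKM with 95% intervals, squares are rescaled without miR-191a-5p, triangles are median-of-ratios scaling, and crosses are the median of all 366 names as deposited, which was 0.47 in DEX against control where miR-191a-5p was at -0.67.

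Summed levels of marker lists for other sources are given beside these differences. The liver sums lay above control in all 3 treated groups, the platelet sums lay below control in DEX, and the erythrocyte sums lay below control in CAF and overlapped it in DEX and CAF+DEX. The leukocyte and striated muscle sums lay above control in CAF and CAF+DEX and overlapped it in DEX. The epithelial sums lay above control in CAF and DEX and overlapped it in CAF+DEX. Such sums follow their most abundant name. In DEX, miR-223-3p had a mean of 1924741 FPKM beside a median platelet sum of 2671218, and miR-16-5p one of 5177149 beside a median erythrocyte sum of 6933075. The median log2 fold change of the listed names in DEX against control was 0.14 for platelet and 0.46 for erythrocyte. In CAF against control it was 0.15 for erythrocyte. The 6 microRNAs of the liver list, all detected and all tested, summed to 8.39 to 12.9% of FPKM in CAF, 9.21 to 17.3% in DEX and 8.99 to 12.3% in CAF+DEX, against 4.22 to 7.07% in control. The 9 of the platelet list summed to 6.50 to 7.75% in CAF, 5.52 to 6.78% in DEX and 6.40 to 8.56% in CAF+DEX, against 7.31 to 8.03% in control. The 7 of the leukocyte list summed to 9.66 to 10.8% in CAF, 6.69 to 9.36% in DEX and 10.6 to 15.0% in CAF+DEX, against 8.70 to 9.05% in control. Of the erythrocyte list, miR-486 and miR-486-5p were not analysed here, and the other 9 names summed to 11.5 to 12.2% in CAF, 13.0 to 15.4% in DEX and 12.3 to 15.5% in CAF+DEX, against 12.5 to 14.9% in control. The erythrocyte and reference lists share miR-16-5p, and the platelet and leukocyte lists share miR-223-3p. In DEX against control, where 12% of all names passed, 4 of 6 liver, 7 of 8 epithelial, 3 of 9 erythrocyte, 1 of 9 platelet, 1 of 7 leukocyte and 1 of 4 striated muscle names passed, all higher. In CAF, beside 7.92% of all names, 3 liver, 1 epithelial, 1 platelet, 2 leukocyte and 3 striated muscle names passed as higher and erythrocyte miR-92a-3p as lower. In CAF+DEX, beside 10.9%, 2 liver, 1 erythrocyte, 1 platelet, 3 leukocyte and 2 striated muscle names passed as higher, and erythrocyte miR-92a-3p and platelet miR-151-3p passed as lower. Of the 8 epithelial names 0 passed there in limma or in voom on recovered reads, and 3 had an unadjusted p under 0.05.

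The haemolysis index was -7.11 to -6.40 in CAF, -6.47 to -5.13 in DEX, -6.44 to -5.67 in CAF+DEX and -7.83 to -7.11 in control. By group mean it was highest where miR-191a-5p was lowest, but within groups the order varied. The library with the highest index had the highest miR-191a-5p level in DEX (DEX2) and in control (ctrl3). It had the lowest level in CAF (CAF5) and the middle one in CAF+DEX (CAFDEX2). With the index as a covariate the DEX difference of miR-191a-5p was -0.74 ± 0.42 (limma adjusted p = 0.670). All DEX and CAF+DEX indices lay above all control indices, as did those of CAF by a small margin (CAF3 at -7.1105, ctrl3 at -7.1149). Index and group therefore cannot be told apart in this fit. Striated muscle names summed to 0.188 to 0.450% in CAF, 0.0300 to 0.114% in DEX and 0.0643 to 0.168% in CAF+DEX, against 0.0188 to 0.0554% in control. Epithelial names summed to 0.208 to 0.340%, 0.262 to 0.690% and 0.129 to 0.324% in CAF, DEX and CAF+DEX, against 0.0906 to 0.166% in control. None of the markers summed here was at 0 in all libraries, and the part of these sources in the levels of the pair was not tested.

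As reference microRNAs, the members were set beside the 16 names of a list in common use for serum, themselves included. Of the 16, 0 passed against control in CAF, beside 7.92% of all tested names, 0 in CAF+DEX, beside 10.9%, and 1 in DEX, beside 12%. The last was miR-222-3p, which rose with a log2 fold change of 1.16 ± 0.35 (limma adjusted p = 0.0446). At an unadjusted p under 0.05 there were 2 in CAF, 3 in DEX and 4 in CAF+DEX, and in voom on recovered reads 0 of the 16, miR-222-3p included, passed in any of the 3. The list's median log2 fold change was -0.26 in CAF, -0.13 in DEX and -0.42 in CAF+DEX, beside 0.19, 0.47 and 0.24 for all tested names. Fold changes were below 0 for 14 of 16 in CAF, 11 of 16 in DEX and 13 of 16 in CAF+DEX, beside 39.1%, 32.5% and 39.3% of all tested names. Among its most abundant names, miR-16-5p had -0.07, 0.23 and 0.27 in CAF, DEX and CAF+DEX against control, and let-7i-5p, a member of the let-7 family, had -0.40, 0.15 and -0.36.

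Spread over the 12 libraries is a second view of use as a reference. The SD of log2(FPKM + 40) was 0.34 for miR-191a-5p, rank 43 of 366 with the steadiest name first, 0.50 for miR-425-5p, rank 113, and 0.20 for miR-16-5p, rank 3. The median SD was 0.31 over the reference list and 0.66 over all tested names, and since low values vary more, it was 0.51 among the 216 names with a mean of at least 1000 FPKM. Among those 216, miR-191a-5p ranked 41 and miR-425-5p ranked 100. The place of miR-191a-5p depended on the scaling: its SD was 0.51, rank 132 of 366, with median-of-ratios scaling, and 0.47, rank 108, when FPKM were rescaled without it. Rescaling without it widens its own spread by construction. miR-16-5p had an SD of 0.15, rank 1, in that rescaled form.

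**Figure D4:**
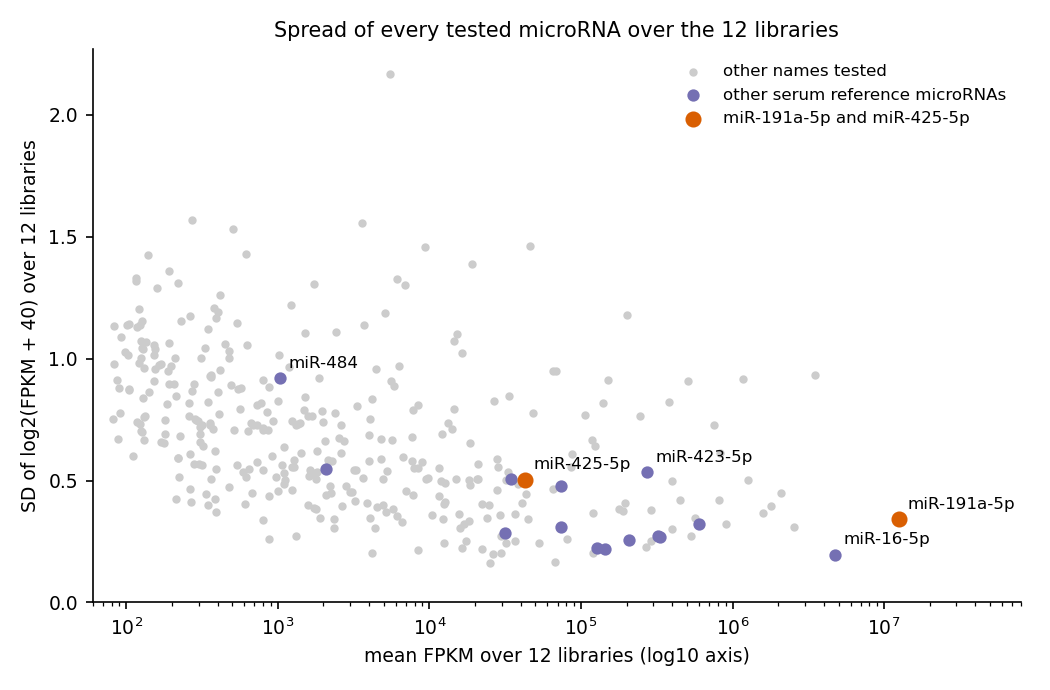
SD of log2(FPKM + 40) over the 12 libraries against mean FPKM (log10 axis) for the 366 tested names, with the 16 serum reference names coloured. miR-191a-5p (SD 0.34) is the most abundant name, miR-16-5p (SD 0.20) lies below it, and miR-425-5p (SD 0.50) lies near the median SD of 0.51 for names of at least 1000 FPKM.

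The names whose levels were most like those of each member, by Pearson r over the 12 libraries among 215 other names with a mean of at least 1000 FPKM, differed between the pair. For miR-191a-5p they were miR-128-3p (r = 0.84), miR-330-3p (0.82), miR-425-3p (0.79), miR-223-3p (0.78), a myeloid and platelet microRNA, and miR-223-5p (0.76), and the name least like it was miR-181a-5p (-0.94). For miR-425-5p they were miR-185-5p (0.94), miR-151-3p (0.90), miR-872-5p (0.90), miR-92a-3p (0.90) and miR-20a-5p (0.87), and the least like was miR-485-3p (-0.85). The partner arm of its own hairpin ranked 12 for miR-191a-5p (r = 0.66) and 61 for miR-425-5p (r = 0.37). These correlations are descriptions over libraries that share a denominator and a group structure. The best match of miR-191a-5p within its own cluster was thus miR-425-3p, not miR-425-5p, which ranked 38. That of miR-425-5p was miR-191a-3p (r = 0.75, rank 20). With median-of-ratios scaling miR-128-3p and miR-185-5p stayed first, but miR-330-3p and miR-223-5p left the 5 names most like miR-191a-5p. There miR-20a-5p left those of miR-425-5p, and r of miR-191a-5p with miR-191a-3p was 0.82.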

How the data were processed

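FPKM per mature microRNA were deposited by the authors, 1 column per library. Per the labels' protocols, RNA came from 200 uL of serum (miRNeasy Micro Kit) and libraries from the QIAseq miRNA kit, whose primers carry molecular identifiers (use of these: not given in the sources used here). Tools named in the submitters' processing notes, without their roles, are STAR 2.7.10a, cutadapt 3.7, DESeq2 1.20.0, Subread 2.0.1 and featureCounts, with build rn6.

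FPKM times length summed to the same constant in each library. FPKM above 0 corresponded to steps of 0.01 read in 100% of cases (tolerance 0.05 of a step), which gave the read totals; 65.4 to 75.0% of recovered values were whole (tolerance 0.001 read). Some recovered values of miR-191a-5p were fractional, as when a read matching several places is split. The 836 rows held 752 names, and the 69 names at several loci were summed. Names with a mean of 80 FPKM or more that were above 0 in 3 or more libraries were tested with limma 3.58.1 (R 4.3.3) on log2(FPKM + 40), 4 groups, mean-variance trend, two-sided, Benjamini-Hochberg over 366 names; fold changes on this scale understate those of low names. Ratios and shares were tested by exact permutation over 369600 assignments, and correlations with 100000 permutations. The code was tested on simulated data. Python 3.11.15 and scipy 1.17.1 were used. Intervals of fold changes are from limma and rest on the spread between libraries within groups. Errors given from read numbers cover counting error only.

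Members and lists were chosen with earlier results of these data known. Named microRNAs were the members, the other products of the locus, the 5 most similar names per member, abundant names next to miR-191a-5p, and list members that passed or were most abundant; the names least like each member were chosen after their values were seen. Alternatives covered pseudocount, filter, scaling, test, fit, covariate and libraries left out.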

Additional observations from a re-analysis of the deposited data

How the results depend on the processing

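Of the alternatives run, most left each member's direction and side of the threshold as reported. Beside the rescaled values and median-of-ratios value given above (-0.93 and -1.08 for miR-191a-5p in DEX against control, -1.06 for miR-425-5p in CAF+DEX against control), quantile normalization turned miR-425-5p in CAF+DEX against CAF to 0.014; it gives no value for miR-191a-5p, which is first in every library. Leaving out 1 library at a time, log2 fold changes of miR-191a-5p ran from -0.80 to -0.59 in DEX against control, passing without CAFDEX3 (limma adjusted p = 0.0366) or CAFDEX6 (limma adjusted p = 0.0483), where the value stayed -0.67 and the shared spread fell, and from -0.021 (without CAFDEX6) to 0.33 in CAF+DEX against DEX. Those of miR-425-5p ran from -1.12 to -0.35 in CAF, -0.75 to 0.018 in DEX and -1.25 to -0.48 in CAF+DEX against control, and its interaction from -0.15 (without ctrl1) to 0.62. The mean of treated minus control libraries ran from -0.26 to 0.55 for the log2 ratio of the pair, -0.092 to 0.30 for the miR-191a arms and -0.46 to 0.11 for the miR-425 arms, each changing sign without ctrl1, and from -0.0871 to -0.0196 percentage points for the share of miR-425-5p, which passed without ctrl5 (exact permutation, adjusted p = 0.00552). The cause was not tested. Over all alternatives, passing names numbered 4 to 65 in CAF against control (29 as reported), 1 to 74 in DEX (44), 1 to 60 in CAF+DEX (40), 0 to 24 in CAF+DEX against DEX (13), 0 to 27 in DEX against CAF (9), 0 in CAF+DEX against CAF, and 7 to 38 for the interaction (17). No paired analysis was possible because the numbers in the column names do not match those in the sample titles. Depth limits miR-191b, at 0 to 3 reads, and adds a counting error of up to 5.23% to miR-425-5p. For the 3p arms this error reached 9.49% in miR-191a-3p and 17.7% in miR-425-3p.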
